A study of Drosophila melanogaster with 9 samples.

Results

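The CPR family is a large family of insect cuticle proteins, and its *Drosophila* genes with a symbol that begins with Cpr followed by a number are described here in the growing eye-antennal disc, the larval epithelium from which the compound eye, antenna and most of the head capsule form. Taking every such symbol in the count table gave 69 of 13676 genes, all with at least 1 read in some library, while *Cpr65Ax1*, whose symbol also fits, was not analysed here. RNA was sequenced from discs dissected from wild-type OregonR larvae reared at 25°C at 3 stages, 72h AEL (hours after egg laying, late L2), 96h AEL (mid L3) and 120h AEL (late L3), with libraries A, B and C for each. A library held a pool of discs, 120 to 130 of them for the 72h, 80 to 90 for the 96h and 40 to 50 for the 120h AEL libraries. The 72h AEL pools mixed both sexes and those of 96h and 120h AEL were female, so that sex cannot be told apart from stage in any comparison with 72h AEL. The 120h AEL libraries alone are labelled as a reanalysis, which cannot be told apart from that stage either.

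Proteins of this family carry a conserved domain, the Rebers and Riddiford consensus, that binds chitin, and together with chitin fibres they form the stiff or soft layers of the exoskeleton. Epidermal cells secrete a new cuticle before each molt, and pulses of the steroid hormone ecdysone time the expression of cuticle protein genes. The genes are named for the place of their locus on the polytene chromosomes, so that genes of 1 locus have the same number and capital letter, as in *Cpr47Ea* to *Cpr47Eg*. Relatives with older names (the Lcp, Ccp84A and Edg genes) belong to the same family but were not members here. Members with a described role in the eye are *Cpr66D* and *Cpr72Ec*, which encode proteins of the corneal lens of the adult.

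Libraries held between 17675472 and 37305763 reads, so that 3 counts, taken as the floor of detection, corresponded to 0.0738 to 0.148 CPM (reads of a gene per TMM-scaled library size, from edgeR). Replicates A and B of 72h AEL agreed within sampling noise (chi-square per gene 1.02, against 36.2 to 488 in the other 8 pairs of 1 stage), and they were summed and counted as 1 sample, which left n = 2 at 72h AEL and n = 3 at each later stage. The authors describe the 3 libraries of a stage as biological replicates. The labels do not say whether libraries came from separate cultures, so p-values measure the spread between these samples, which may be technical. The markers of the eye-antennal disc were present at all stages (13 of 13 genes tested in each comparison), with a summed level of 609 to 674 CPM at 72h AEL, 2023 to 2509 CPM at 96h AEL and 1993 to 2132 CPM at 120h AEL.

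Summed over the 69 genes, *Cpr* transcripts reached 11260, 11290 and 11230 CPM in the libraries of 72h AEL, 395.7, 502.5 and 491 CPM at 96h AEL, and 301, 329.9 and 314 CPM at 120h AEL. The libraries of a stage lay close together and no stages overlapped. The mean sum at 96h AEL was 24.3 times lower than at 72h AEL, and that at 120h AEL was 1.47 times lower than at 96h AEL. In bulk tissue, fewer cells that express a gene and less RNA per cell cannot be told apart. The number of genes with a mean of at least 10 CPM was 40 at 72h AEL, 14 at 96h AEL, and only 6 by 120h AEL. The highest mean stood at 72h AEL for 57 of the 69 genes, at 96h AEL for 3 and at 120h AEL for 9.

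**Figure D1:**
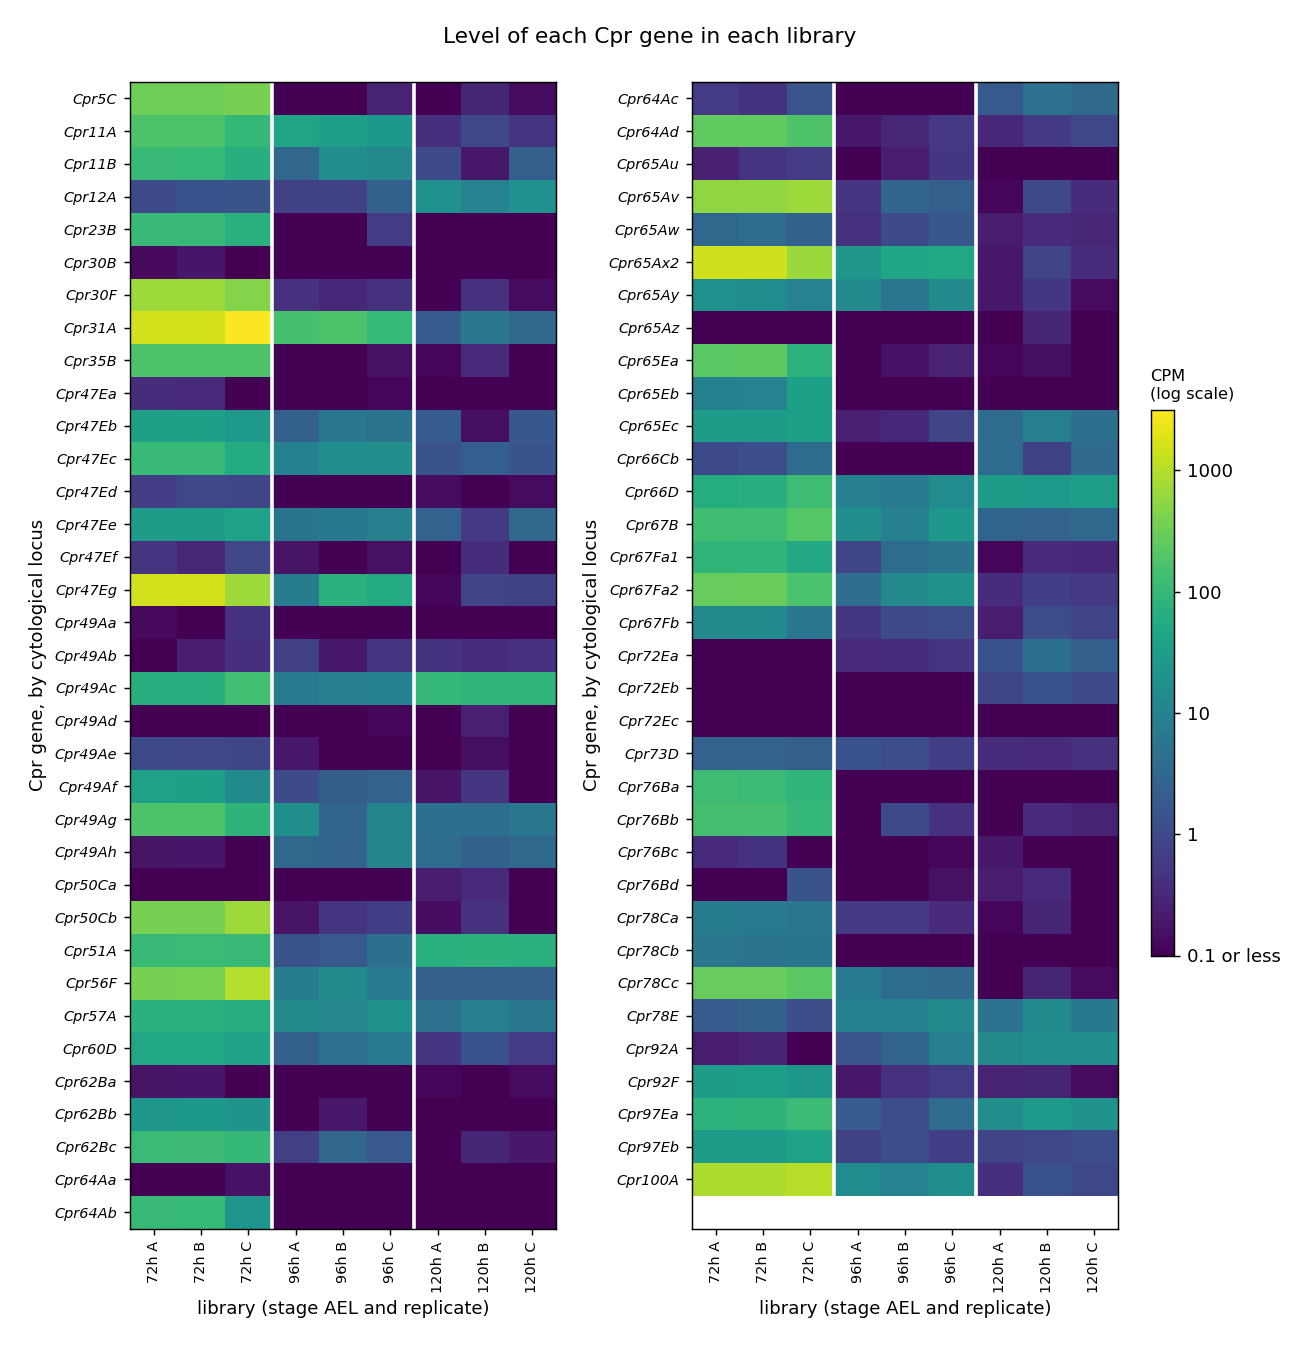
Level of each of the 69 *Cpr* genes (lines, by cytological locus) in each of the 9 libraries (columns, by stage) in CPM on a log colour scale. The columns of 72h AEL hold 40 genes with a mean of at least 10 CPM, those of 96h AEL 14 and those of 120h AEL 6.

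A few genes made up most of these sums, and they were not the same at each stage. *Cpr31A*, *Cpr47Eg*, *Cpr65Ax2*, *Cpr100A* and *Cpr56F* held 54.6% of the *Cpr* sum at 72h AEL. *Cpr31A*, *Cpr47Eg* and *Cpr65Ax2* also led at 96h AEL, where the 5 highest genes held 60.5%. At 120h AEL, *Cpr49Ac*, *Cpr51A*, *Cpr66D*, *Cpr97Ea* and *Cpr92A* held 74.1%, and none of them was among the 5 highest of an earlier stage. Per kb of coding sequence, the scale on which levels of genes can be compared, the order at 72h AEL began with *Cpr65Ax2* (3500 CPM per kb), *Cpr47Eg* (3166) and *Cpr31A* (2244). At 120h AEL it began with *Cpr51A* (170.0 CPM per kb), *Cpr49Ac* (95.5) and *Cpr66D* (36.3). Reads of the near-identical gene *Cpr65Ax1* may be counted with *Cpr65Ax2*, so the rank and share of *Cpr65Ax2* are uncertain. 

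From late L2 to mid L3, nearly all *Cpr* genes that could be tested fell. Of the 46 members that passed the filter on low counts, 42 were lower at 96h than at 72h AEL, 3 were higher and 1 was not called (edgeR's quasi-likelihood test, two-sided, Benjamini-Hochberg adjusted p under 0.05). Over all 8845 genes tested 42.4% were called, 19.4% higher and 23.0% lower. The median log2 fold change was −5.10 over the tested *Cpr* genes and −0.04 over all tested genes. The other 23 members stayed under the filter, and members that passed it through 1 stage alone were bound to differ, so these counts describe the 46 and not all 69. Without any filter all 69 were tested and 48 called, among them the same 45, while 28.3% of all genes were called.

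Several of these falls ended at or close to the floor of detection. *Cpr64Ab* had 0, 0.0334 and 0 CPM in 96h AEL replicates A, B and C, against 107, 104 and 22.9 CPM at 72h AEL (edgeR adjusted p = 0.00422). These levels stand for 1 read in all at 96h AEL, and the ratio of summed counts was 7490-fold with a counting interval of 1340 to 296000 (exact, 95%, counting error only). *Cpr76Ba* had 0, 0.10 and 0.0799 CPM at 96h AEL, against 124, 119 and 90.6 CPM at 72h AEL (edgeR adjusted p = 0.00163). Its ratio of summed counts was 2130-fold (912 to 6560). Both genes were thus among the well expressed members at late L2 and at or under 3 counts in each library of mid L3.

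Falls of the same order began from higher levels in 4 further genes. *Cpr5C* had 0.0246, 0.10 and 0.280 CPM at 96h AEL, against 324, 327 and 373 CPM at 72h AEL (edgeR adjusted p = 0.00199), or 11 reads in all against 25086, a ratio of 2970-fold with a counting interval of 1660 to 5940. *Cpr35B* had 0, 0.10 and 0.160 CPM at 96h AEL, against 176, 173 and 183 CPM at 72h AEL (edgeR adjusted p = 0.00192), or 7 reads against 13032 (2420-fold, counting interval 1180 to 6020). The 2 genes lie on different chromosome arms, X and 2L. *Cpr30F* had 0.443, 0.334 and 0.440 CPM at 96h AEL, against 685, 694 and 464 CPM at 72h AEL (log2 fold change −10.51 ± 0.35, SE). *Cpr50Cb* had 0.172, 0.501 and 0.679 CPM at 96h AEL, against 383, 382 and 694 CPM at 72h AEL (log2 fold change −10.30 ± 0.72). In none of the 4 did any library of 96h AEL come near those of 72h AEL, although replicate C of 72h AEL stood apart from A and B for *Cpr30F*, where it was lower, and for *Cpr50Cb*, where it was higher.

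*Cpr31A*, *Cpr65Ax2* and *Cpr47Eg*, the highest members at 72h AEL by CPM, fell less than the genes above and remained measurable at mid L3. *Cpr31A* had 158, 174 and 102 CPM at 96h AEL, against 1634, 1640.0 and 2955 CPM at 72h AEL (log2 fold change −4.04 ± 0.37, edgeR adjusted p = 0.00368). *Cpr65Ax2* had 24.0, 44.3 and 48.2 CPM at 96h AEL, against 1500.0, 1508 and 659 CPM at 72h AEL (log2 fold change −4.85 ± 0.52, edgeR adjusted p = 0.00536). *Cpr65Ax2* has a near-identical neighbour, *Cpr65Ax1*, so its counts are uncertain gene by gene. *Cpr47Eg* had 8.14, 73.7 and 56.4 CPM at 96h AEL, against 1542, 1557 and 692 CPM at 72h AEL (log2 fold change −4.66 ± 0.99, edgeR adjusted p = 0.0229). Its libraries of 96h AEL spread widely, with replicate A lowest, and without 96h AEL replicate B the call was lost (log2 fold change −5.16, edgeR adjusted p = 0.0755). *Cpr100A* and *Cpr56F* fell by 6.14 ± 0.34 and 6.28 ± 0.57 on the log2 scale. Other members among the 10 highest at 72h AEL fell more, with log2 fold changes of −8.45 ± 0.88 (*Cpr65Av*), −10.51 ± 0.35 (*Cpr30F*) and −10.30 ± 0.72 (*Cpr50Cb*).

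Among the 46 members that passed the filter, only *Cpr78E*, *Cpr49Ah* and *Cpr92A* were called higher at 96h than at 72h AEL. *Cpr78E* had 9.49, 9.51 and 13 CPM at 96h AEL, against 1.95, 2.36 and 1.16 CPM at 72h AEL (log2 fold change 2.62 ± 0.45, edgeR adjusted p = 0.0150). *Cpr49Ah* had 3.17, 2.74 and 11.4 CPM at 96h AEL, against 0.173, 0.191 and 0.0826 CPM at 72h AEL (log2 fold change 5.30 ± 1.08, edgeR adjusted p = 0.0213), or 496 reads against 11 (34.7-fold, counting interval 19.2 to 69.9). *Cpr92A* had 1.55, 2.77 and 8.75 CPM at 96h AEL, against 0.217, 0.267 and 0.0413 CPM at 72h AEL (log2 fold change 4.74 ± 1.27, edgeR adjusted p = 0.0369), or 365 reads against 13 (21.6-fold, counting interval 12.5 to 40.9). In each gene these stages did not overlap, and 96h AEL replicate C was the highest of their libraries. All 3 calls were lost without 96h AEL replicate B (log2 fold changes 2.72, 5.64 and 4.99), those of *Cpr49Ah* and *Cpr92A* also without 72h AEL replicate C (4.90 and 4.08), and that of *Cpr92A* also without 96h AEL replicate C (3.74). Leaving out 96h AEL replicate B ended 11 calls of falling members too and lowered the calls over all genes to 645. Under the filter, *Cpr72Ea* had 37 reads at 96h against 5 at 72h AEL (5.69-fold, counting interval 2.23 to 18.5). It was not called in the test without a filter (log2 fold change 2.43 ± 0.74, edgeR adjusted p = 0.0555). With filterByExpr as the filter, 4 members were called higher.

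The only tested member that was not called was *Cpr65Ay*. It had 12.9, 5.94 and 13.7 CPM at 96h AEL, against 18, 15.5 and 9.99 CPM at 72h AEL, and the stages overlapped (log2 fold change −0.34 ± 0.47, edgeR adjusted p = 0.563). The other tested members of its locus, *Cpr65Av* and *Cpr65Ax2*, fell in the same comparison.

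Markers of other cell types moved between the same stages. The larval epidermis cuticle markers, which are Lcp genes (3 of 7 lower), had a summed level of 133 to 372 CPM at 96h AEL, against 1393 to 2536 CPM at 72h AEL. These Lcp genes are of the same family as the *Cpr* genes and are counted again among the other cuticle protein genes below. The muscle markers (4 of 9 lower) lay at 2203 to 8262 CPM at 96h AEL, against 14650 to 19510 CPM at 72h AEL. Trachea markers lay at 1632 to 2138 CPM at 96h AEL, against 2000 to 2162 CPM at 72h AEL, with 1 of 5 tested genes higher (*uif*) and 1 lower (*serp*). Their sum rested on *verm*, *serp*, *Gasp*, *pio* and *uif*, and *Gasp*, *verm* and *serp* are also counted among the chitin genes below. The marker *trh*, under the filter, averaged 1.19 CPM at 96h AEL, against 2.22 CPM at 72h AEL. For the salivary gland markers the sums were 506 to 948 CPM at 96h AEL, against 2544 to 7014 CPM at 72h AEL, with *ng1*, *ng2* and *ng3* the most abundant and 3 of 5 tested genes lower. Fat body markers summed to 2060 to 7000 CPM at 96h AEL, against 5953 to 6468 CPM at 72h AEL, with 3 of 7 tested genes higher and 2 lower. Hemocyte markers summed to 77.1 to 566 CPM at 96h AEL, against 480 to 1816 CPM at 72h AEL. All 7 matched larval epidermis markers and all 9 muscle markers had more than 3 counts in a library of each stage. The part of these cells in the *Cpr* result was not tested.

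**Figure D2:**
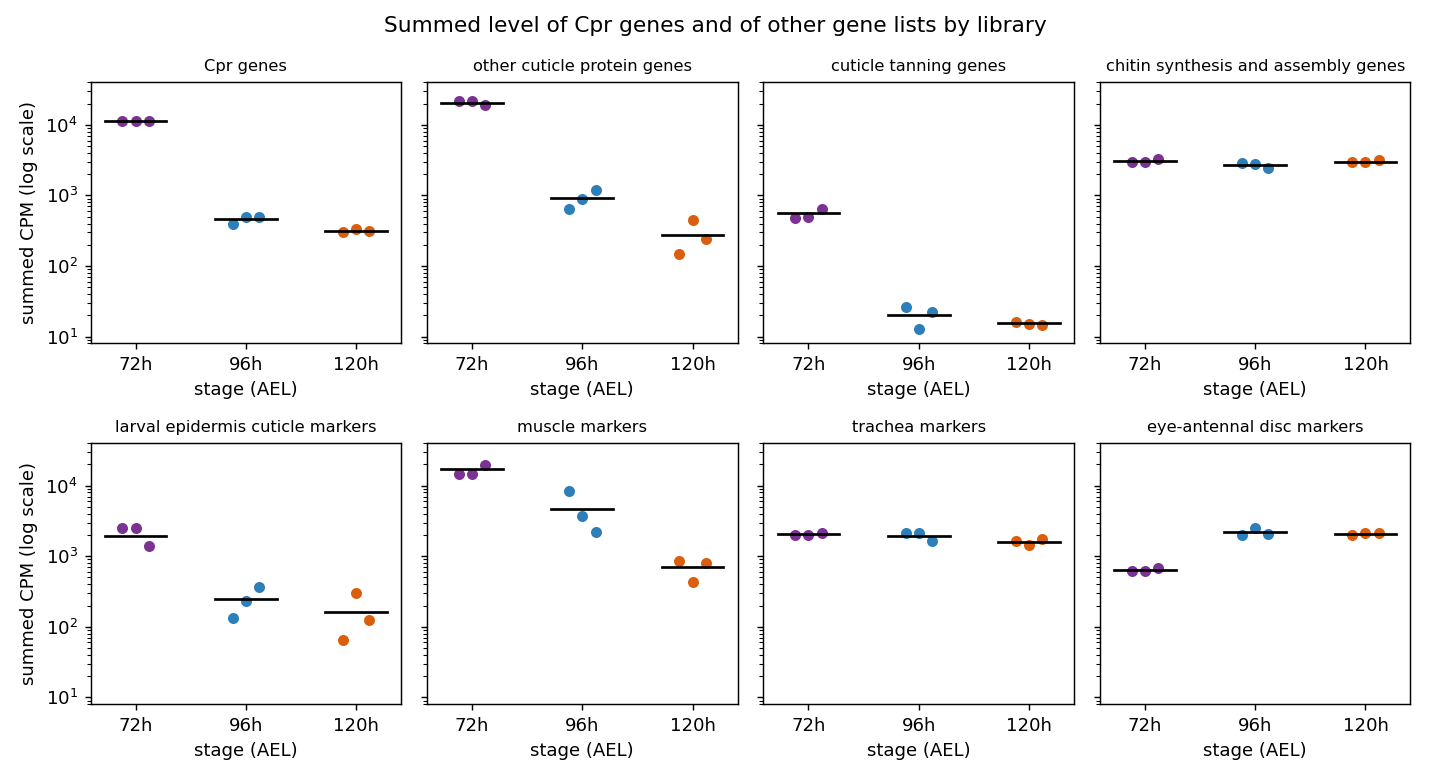
Summed CPM (log scale) of the *Cpr* genes and of 7 other gene lists in each library (points) with the stage mean (line; at 72h AEL replicates A and B count as 1). *Cpr* genes lie at 11230 to 11290 CPM at 72h AEL, 395.7 to 502.5 CPM at 96h AEL and 301 to 329.9 CPM at 120h AEL. The sum of the trachea markers, single genes of which moved in both directions, lies between 1427 and 2162 CPM.

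From mid to late L3 the *Cpr* genes split. Of 29 tested members, 14 were lower at 120h than at 96h AEL, 8 were higher and 7 were not called, while of all 8201 tested genes 14.7% were called, 8.39% higher and 6.30% lower. The median log2 fold change was −1.78 over the tested members and 0.01 over all tested genes. This fit had no term for the replicate letter. With that letter as a block, 19 were called, 7 higher and 12 lower, beside 10.7% of all tested genes. Here too, members that passed the filter through 1 stage alone were bound to differ, so these counts describe the 29 only. Without a filter, 26 of the 69 members were called, among them the same 22, and 10.6% of all genes. Falls continued for genes that had led at the earlier stages. *Cpr65Ax2* had 0.198, 0.841 and 0.369 CPM at 120h AEL, against 24.0, 44.3 and 48.2 CPM at 96h AEL (log2 fold change −6.39 ± 0.57, edgeR adjusted p = 0.00157). *Cpr47Eg* had 0.113, 0.841 and 0.737 CPM at 120h AEL, against 8.14, 73.7 and 56.4 CPM at 96h AEL (log2 fold change −6.36 ± 1.06, edgeR adjusted p = 0.0106). *Cpr31A* had 1.93, 6.43 and 3.15 CPM at 120h AEL, against 158, 174 and 102 CPM at 96h AEL (log2 fold change −5.18 ± 0.49, edgeR adjusted p = 0.00187). The 3 most abundant members of late L2 were thus at a few CPM or less by late L3.

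*Cpr11A* fell at both transitions, and more steeply at the later one. It had 0.425, 0.940 and 0.469 CPM at 120h AEL, against 42.4, 33.8 and 24.7 CPM at 96h AEL (log2 fold change −5.74 ± 0.38, edgeR adjusted p = 0.000781), after a change of −2.09 ± 0.33 between 96h and 72h AEL. *Cpr65Ay*, which was not called before, had 0.198, 0.544 and 0.134 CPM at 120h AEL, against 12.9, 5.94 and 13.7 CPM at 96h AEL (log2 fold change −5.20 ± 0.66, edgeR adjusted p = 0.00412). *Cpr67Fa2* had 0.368, 0.692 and 0.570 CPM at 120h AEL, against 4.03, 13 and 19.5 CPM at 96h AEL (log2 fold change −4.43 ± 0.68, edgeR adjusted p = 0.00780). In all 3 genes the stages did not overlap. The call of *Cpr11A* between 96h and 72h AEL was lost without 96h AEL replicate B (log2 fold change −2.06, edgeR adjusted p = 0.0711). With the replicate letter as a block, the falls of *Cpr57A* (log2 fold change −1.22, edgeR adjusted p = 0.0918) and *Cpr60D* (−2.48, 0.0663) were no longer called at this transition, and both calls were also lost without 96h AEL replicate B (−1.38 and −2.54), 120h AEL replicate A (−1.05 and −2.22) or 120h AEL replicate C (−1.15 and −2.31).

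The 8 members that rose at late L3 were *Cpr51A*, *Cpr49Ac*, *Cpr97Ea*, *Cpr66D*, *Cpr65Ec*, *Cpr12A*, *Cpr64Ac* and *Cpr72Ea*. *Cpr51A* had 71.4, 78.7 and 71.7 CPM at 120h AEL, against 1.5, 1.80 and 4.51 CPM at 96h AEL (log2 fold change 4.91 ± 0.46, edgeR adjusted p = 0.00183). *Cpr49Ac* had 101, 89.5 and 88.5 CPM at 120h AEL, against 7.11, 8.28 and 9.55 CPM at 96h AEL (log2 fold change 3.56 ± 0.17, edgeR adjusted p = 0.000277). Both lie on arm 2R, at 14512559 to 14515211 and at 12386666 to 12390057 of the BDGP6 annotation, and in both every library of late L3 lay far above the highest of mid L3. *Cpr97Ea* had 16.4, 26.2 and 20.7 CPM at 120h AEL, against 2.04, 1.17 and 3.71 CPM at 96h AEL (log2 fold change 3.26 ± 0.46, edgeR adjusted p = 0.00613). *Cpr66D*, the corneal lens gene, had 29.5, 27.6 and 31.5 CPM at 120h AEL, against 9.07, 6.84 and 14.9 CPM at 96h AEL (log2 fold change 1.59 ± 0.30, edgeR adjusted p = 0.0162). Its libraries did not overlap between the stages, but the call was lost on leaving out replicate A or B of 96h AEL (log2 fold changes 1.49 and 1.34) or replicate A or C of 120h AEL (1.58 and 1.56).

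The remaining 4 were at low levels at mid L3. *Cpr12A* had 18.4, 9.69 and 18.9 CPM at 120h AEL, against 0.787, 0.735 and 2.44 CPM at 96h AEL (log2 fold change 3.64 ± 0.59, edgeR adjusted p = 0.00954). *Cpr65Ec* had 3.94, 8.51 and 4.36 CPM at 120h AEL, against 0.246, 0.334 and 0.839 CPM at 96h AEL (log2 fold change 3.64 ± 0.65, edgeR adjusted p = 0.0133), which did not pass without 96h AEL replicate B (3.42) and was not tested without 120h AEL replicate B. *Cpr64Ac* had 1.87, 4.85 and 3.55 CPM at 120h AEL, against 0.0246, 0.0334 and 0.0799 CPM at 96h AEL (edgeR adjusted p = 0.00330), or 270 reads in all against 4, a ratio of 75.6-fold with a counting interval of 29.2 to 280. *Cpr72Ea* had 1.39, 4.55 and 2.35 CPM at 120h AEL, against 0.344, 0.367 and 0.479 CPM at 96h AEL (log2 fold change 2.86 ± 0.62, edgeR adjusted p = 0.0270). Blocked by the replicate letter, *Cpr72Ea* was not called (log2 fold change 2.70, edgeR adjusted p = 0.0791). *Cpr64Ac* and *Cpr72Ea* lay near the filter and were not tested once any library of 96h AEL or 120h AEL replicate B was left out, and *Cpr72Ea* also not without 120h AEL replicate C. 

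A pair of members under the filter also rose in their reads between 96h and 120h AEL, from different courses before. *Cpr66Cb*, named after its values were seen, had 3.74, 0.742 and 3.38 CPM at 120h AEL, against 0, 0 and 0.0799 CPM at 96h AEL, or 248 reads against 2 (139-fold, counting interval 38.1 to 1150). Its 72h AEL libraries had 1.04, 1.22 and 3.96 CPM, or 152 reads against the 2 at 96h AEL (98.9-fold, counting interval 26.9 to 824). This earlier fall of *Cpr66Cb* was called without the filter (log2 fold change −6.62 ± 1.24, edgeR adjusted p = 0.0163). At 120h against 72h AEL it was not called (0.06 ± 0.81, edgeR adjusted p = 0.959). *Cpr72Eb*, likewise named after its values were seen, had 0.878, 1.39 and 1.07 CPM at 120h AEL, against 0.0492, 0.0334 and 0.0799 CPM at 96h AEL, or 91 reads against 5 (20.4-fold, counting interval 8.43 to 64.3), and no read in any library of 72h AEL. Tested without the filter, both were called higher at 120h than at 96h AEL (log2 fold changes 6.72 ± 1.11 and 4.32 ± 0.54).

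**Figure D3:**
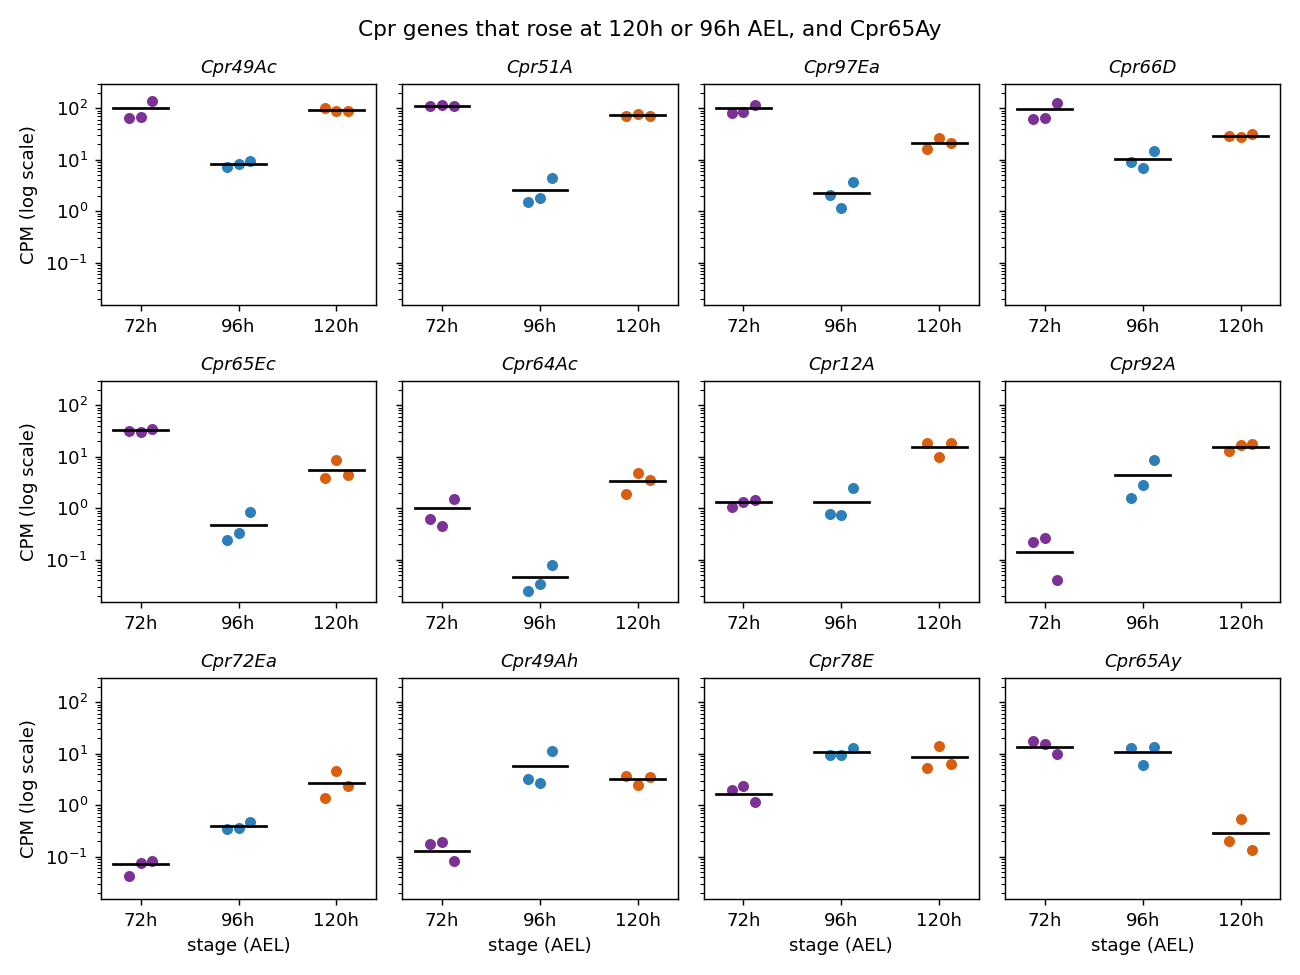
CPM (log scale) of 12 *Cpr* genes in each library (points) by stage, with the stage mean as a line. *Cpr49Ac*, *Cpr51A*, *Cpr97Ea*, *Cpr66D* and *Cpr65Ec* dip at 96h AEL, *Cpr12A*, *Cpr64Ac* and *Cpr72Ea* are highest at 120h AEL, *Cpr49Ah*, *Cpr78E* and *Cpr92A* lie above their 72h AEL libraries from 96h AEL on, and *Cpr65Ay* drops only at 120h AEL.

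Beside this transition the marker sums moved as well. Muscle markers lay at 425 to 854 CPM at 120h AEL, against 2203 to 8262 CPM at 96h AEL, with 5 of 9 lower. Larval epidermis cuticle markers lay at 65.4 to 300.1 CPM at 120h AEL, against 133 to 372 CPM at 96h AEL, with 1 of 7 higher (*Lcp65Ad*) and 1 lower (*Lcp65Ag2*), and trachea markers at 1427 to 1777 CPM at 120h AEL, against 1632 to 2138 CPM at 96h AEL. Salivary gland markers summed to 297 to 353 CPM at 120h AEL, against 506 to 948 CPM at 96h AEL, with 8 of 11 tested genes higher, the Sgs genes among them, and 3 lower. Fat body markers ranged over 142.5 to 4894 CPM at 120h AEL and 2060 to 7000 CPM at 96h AEL, and hemocyte markers over 353 to 2193 CPM at 120h AEL and 77.1 to 566 CPM at 96h AEL. The part of these cells in the *Cpr* changes was not tested.

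Setting late L3 directly against late L2 showed how far the genes that dipped came back. Of 48 tested members, 42 were lower at 120h than at 72h AEL, 4 were higher and 2 were not called. Again, members that passed the filter through 1 stage alone were bound to differ, so these counts describe the 48 only. Without a filter 53 of the 69 were called, with 37.7% of all genes. Of all 9125 tested genes 52.9% were called, 24.0% higher and 28.9% lower. The 5 members that fell and then rose in the tests with the filter differed in where they ended. *Cpr49Ac* had 101, 89.5 and 88.5 CPM at 120h AEL, against 65.3, 67.0 and 139.5 CPM at 72h AEL, and the stages overlapped (log2 fold change −0.16 ± 0.31, edgeR adjusted p = 0.695). *Cpr51A* had 71.4, 78.7 and 71.7 CPM at 120h AEL, against 112, 115 and 112 CPM at 72h AEL (log2 fold change −0.63 ± 0.13, edgeR adjusted p = 0.0132). This small difference depended on the scaling, since it was −0.05 with library size alone (edgeR adjusted p = 0.821) and turned to 0.63 with a coding length trend taken out (0.0138), and it was not called with all stages in 1 fit (−0.63, edgeR adjusted p = 0.218) or without 120h AEL replicate A (−0.61) or C (−0.60). *Cpr66D*, *Cpr97Ea* and *Cpr65Ec* stayed lower at 120h than at 72h AEL, with log2 fold changes of −1.71 ± 0.29, −2.25 ± 0.24 and −2.57 ± 0.39 (edgeR adjusted p = 0.00740, 0.00203 and 0.00540).

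Of the 48 members that passed the filter, the 4 higher at late L3 than at late L2 were *Cpr92A*, *Cpr12A*, *Cpr72Ea* and *Cpr78E*. Without the filter, *Cpr49Ah* and *Cpr72Eb* were called higher as well (edgeR adjusted p = 0.00245 and 0.00339). *Cpr49Ah* had 286 reads at 120h against 11 at 72h AEL (22.4-fold, counting interval 12.3 to 45.4), and *Cpr72Eb* had 91 against none. *Cpr92A* had 12.9, 16.6 and 17.5 CPM at 120h AEL, against 0.217, 0.267 and 0.0413 CPM at 72h AEL (edgeR adjusted p = 0.00189), or 1315 reads against 13 (87.1-fold, counting interval 50.8 to 164), with the libraries of 96h AEL in between. *Cpr12A* had 18.4, 9.69 and 18.9 CPM at 120h AEL, against 1.04, 1.33 and 1.45 CPM at 72h AEL (log2 fold change 3.54 ± 0.42, edgeR adjusted p = 0.00272). *Cpr72Ea* had 211 reads at 120h AEL, against 5 at 72h AEL (36.3-fold, counting interval 15.3 to 113, edgeR adjusted p = 0.00800), and was not tested without 72h AEL replicate C or 120h AEL replicate B. *Cpr78E* had 5.24, 14.4 and 6.47 CPM at 120h AEL, against 1.95, 2.36 and 1.16 CPM at 72h AEL (log2 fold change 2.34 ± 0.64, edgeR adjusted p = 0.0300), which did not pass on leaving out replicate C of 72h AEL (1.92) or of 120h AEL (2.52). The comparisons of 96h against 72h AEL and of 120h against 96h AEL share the 96h AEL libraries, and this one shares libraries with each of them.

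Members that are neighbours in the genome often differed in their course, as the plot of log2 fold changes by locus shows. Loci with 2 or more members number 12 and hold 48 of the 69 genes, and the other 21 genes stand alone. The largest is 49A, on arm 2R from 12376626 to 12415170 (BDGP6), with 8 members. Its summed level averaged 259 ± 27.2 CPM at 72h AEL, 27.0 ± 9.74 CPM at 96h AEL and 102 ± 7.05 CPM at 120h AEL (SD, n = 2, 3 and 3). *Cpr49Ag* led it per kb over the stages, with 176, 174 and 85.0 CPM at 72h AEL, 17.4, 2.77 and 10.9 CPM at 96h AEL and 4.36, 4.15 and 5.90 CPM at 120h AEL. *Cpr49Af* and *Cpr49Ag* fell between 72h and 96h AEL and did not rise again, *Cpr49Ac* fell and rose, and *Cpr49Ah* rose. The other 4 (*Cpr49Aa*, *Cpr49Ab*, *Cpr49Ad* and *Cpr49Ae*) had means under 1 CPM at every stage. The call of *Cpr49Ag* between 96h and 72h AEL was lost without 96h AEL replicate C (log2 fold change −3.70, edgeR adjusted p = 0.0543) and with a coding length trend taken out (−2.51, 0.0542), and that of *Cpr49Af* without 96h AEL replicate B (−3.79, 0.0656).

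**Figure D4:**
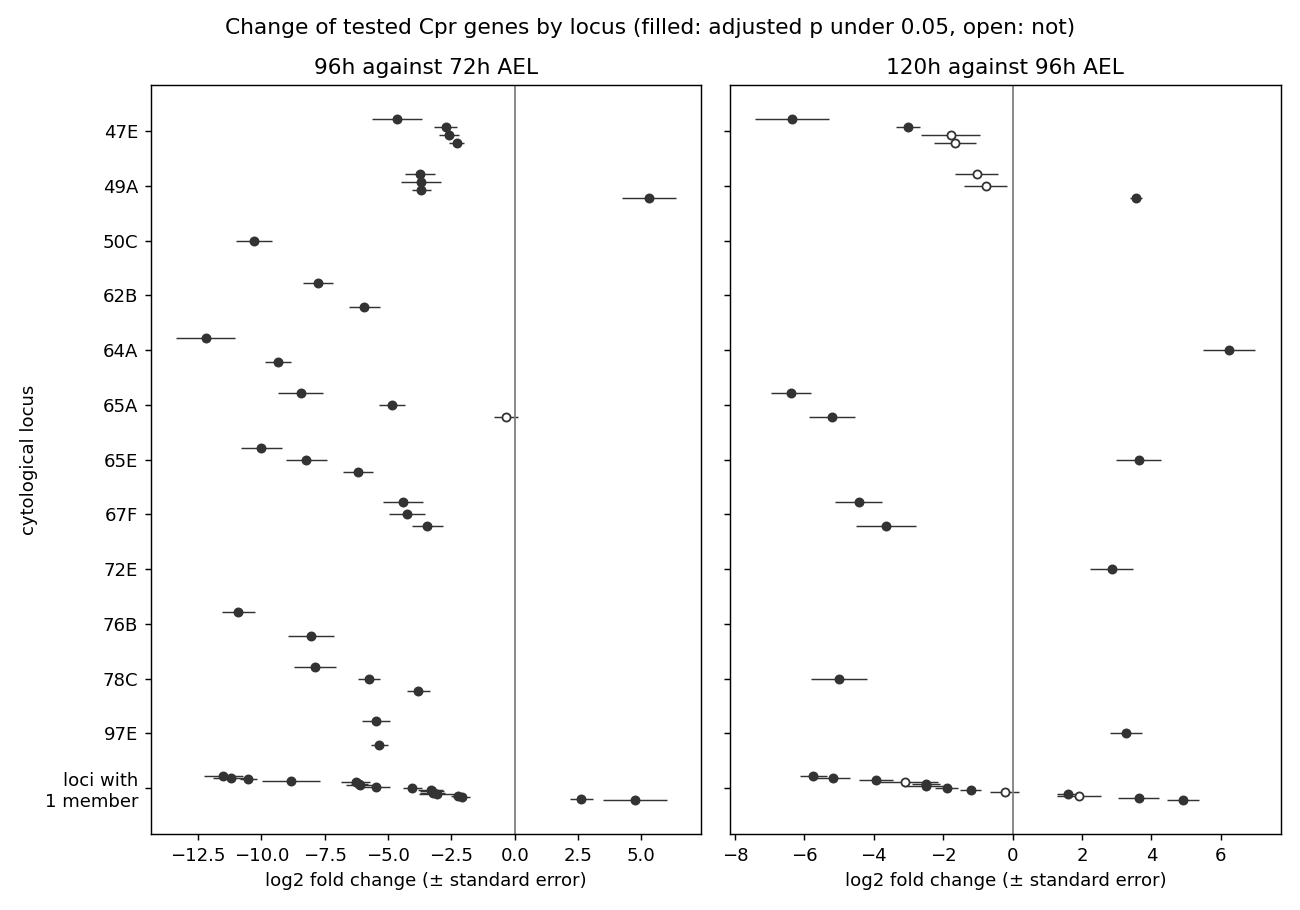
Log2 fold change (points) with its standard error (bars) of each tested *Cpr* gene, by cytological locus, at 96h against 72h AEL and at 120h against 96h AEL. Of 46 points for 96h against 72h AEL, 3 are filled above 0 and 42 filled below, and of 29 points for 120h against 96h AEL, 8 are filled above 0 and 14 below. Values of genes with few reads at 1 stage, such as *Cpr64Ab* and *Cpr64Ac*, depend on the prior count.

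Locus 64A (arm 3L, 4207838 to 4216414) held neighbours that parted only after 96h AEL. *Cpr64Ad*, its highest member per kb, had 254, 252 and 173 CPM at 72h AEL, 0.197, 0.30 and 0.559 CPM at 96h AEL and 0.311, 0.594 and 0.938 CPM at 120h AEL, and *Cpr64Ab* was at the floor after 72h AEL. *Cpr64Ac*, which lies between them and 424 bases from *Cpr64Ab*, had 0.607, 0.457 and 1.53 CPM at 72h AEL and was highest at 120h AEL. In between it was lower too, with 4 reads at 96h AEL against 63 at 72h AEL (20.5-fold, counting interval 7.62 to 77.5). Tested without the filter, this fall was called (log2 fold change −4.44 ± 0.85). Whether its level at 120h AEL differed from that at 72h AEL was not decided by the test (log2 fold change 1.74 ± 0.71, edgeR adjusted p = 0.0900). At 65E (arm 3L, 7086003 to 7093841), *Cpr65Ea* had 226, 229 and 80.0 CPM at 72h AEL, 0.0492, 0.167 and 0.280 CPM at 96h AEL and 0.113, 0.148 and 0.0335 CPM at 120h AEL. It and *Cpr65Eb* fell and stayed low, whereas *Cpr65Ec* was the member of the locus that rose again. At 97E (arm 3R, 27083130 to 27091130) both *Cpr97Ea* and *Cpr97Eb* fell between 72h and 96h AEL (log2 fold changes −5.47 ± 0.54 and −5.35 ± 0.33), but the libraries of *Cpr97Eb* stayed at 0.821, 0.940 and 1.17 CPM at 120h AEL. Tested without the filter, *Cpr97Eb* was not called higher at 120h than at 96h AEL.

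Other loci moved in 1 direction. At 47E (arm 2R, 11251751 to 11278445), with 7 members, the 4 tested members all fell at 96h AEL, and *Cpr47Ec* and *Cpr47Eg* fell again at 120h AEL. Without 96h AEL replicate B, only the fall of *Cpr47Ee* was still called at 96h AEL (log2 fold changes −2.99 for *Cpr47Eb* and −2.71 for *Cpr47Ec*). The other 3 (*Cpr47Ea*, *Cpr47Ed* and *Cpr47Ef*) had means under 1 CPM at every stage, and the sum over the locus averaged 1271 ± 642 CPM at 72h AEL, 72.5 ± 41.1 CPM at 96h AEL and 5.98 ± 1.59 CPM at 120h AEL. At 67F (arm 3L, 10889990 to 10894693) all 3 members fell at 96h AEL and both *Cpr67Fa1* and *Cpr67Fa2* again at 120h AEL. These 2 genes have coding sequences of 405 bases each and are close copies, so the division of reads between them is uncertain. *Cpr67Fa2* had 284, 291 and 166 CPM at 72h AEL. Without 96h AEL replicate B the calls of the 3 falls at 96h AEL were lost (log2 fold changes −4.51, −4.31 and −3.59). The later fall of *Cpr67Fa1* (−3.64 ± 0.87) was no longer called, or not tested, whichever library of the 6 was left out (−3.26 to −3.87 where it was tested).

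At 65A (arm 3L, 6131242 to 6161589), 6 members were present, with the timing of *Cpr65Ay* described above beside the early falls of *Cpr65Av* and *Cpr65Ax2*. *Cpr65Av* had 572, 574 and 705 CPM at 72h AEL, 0.467, 2.94 and 2.32 CPM at 96h AEL and 0.113, 0.989 and 0.369 CPM at 120h AEL. *Cpr65Az* had no read at 72h AEL, and *Cpr65Au* and *Cpr65Aw* were at 3.73 CPM or less in every library. At 62B, 76B and 78C every tested member fell at 96h AEL (2 of 3 members, 2 of 4 and 3 of 3). The highest per kb were *Cpr62Bc*, with 117, 120.4 and 101 CPM at 72h AEL and 0.713, 3.10 and 1.84 CPM at 96h AEL, *Cpr76Bb*, with 149.6, 150.2 and 98.2 CPM and 0.0737, 1.0 and 0.440 CPM, and *Cpr78Cc*, with 289.9, 286 and 221 CPM and 7.47, 3.91 and 3.40 CPM. *Cpr78Cc* fell once more at 120h AEL, with 11 reads against 506 at 96h AEL (41.1-fold, counting interval 22.7 to 82.8), a call lost without 120h AEL replicate C (log2 fold change −4.94) and not tested without 96h AEL replicate A. At 50C, *Cpr50Cb* was among the highest members of late L2, while its neighbour *Cpr50Ca* stayed at 0.346 CPM or less in every library.

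Locus 72E (arm 3L, 16362603 to 16367340) had the reverse course. None of its 3 members passed the filter between 72h and 96h AEL, and its sum averaged 0.122 ± 0.00307 CPM at 72h AEL, 0.501 ± 0.0584 CPM at 96h AEL and 3.92 ± 1.92 CPM at 120h AEL. *Cpr72Ea* and *Cpr72Eb* carried this, whereas *Cpr72Ec*, the other corneal lens gene, had 3 counts or fewer in every library. Over all loci, 16 members had means under 1 CPM at all 3 stages, all but *Cpr30B* in loci with several members. How the loci differ is given as a description, since no test compared them.

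The authors' clusters, made from the same counts, placed 50 of the 69 genes. Their cluster 1 held 31 of these 50 (62%) and 7.84% of all 8836 clustered genes, and their cluster 2 held 9 (18%, against 7.42% of all). *Cpr12A*, *Cpr64Ac*, *Cpr72Ea* and *Cpr92A* were in cluster 13, *Cpr49Ac*, *Cpr51A* and *Cpr66Cb* in cluster 5, *Cpr49Ah* and *Cpr78E* in cluster 10, and *Cpr65Ay* alone in cluster 3. *Cpr65Ec*, *Cpr66D* and *Cpr97Ea*, which fell and rose, were in cluster 2 with *Cpr11A*, which only fell. As the clusters rest on the libraries used here, they are no independent evidence.

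Although the *Cpr* sum in TMM-scaled CPM was nearly equal in the 3 libraries of 72h AEL, single genes differed between replicate C and replicates A and B. Of the 40 members with a mean of at least 10 CPM at that stage, 7 were over 1.5 times higher in replicate C than in the mean of A and B, and 14 were over 1.5 times lower. These are 17.5% and 35% of the *Cpr* genes, against 15% and 7.85% of all 7427 genes at that level. The ratio ranged between 0.217 for *Cpr64Ab* and 3.59 for *Cpr65Eb*. *Cpr49Ac* (2.11), *Cpr66D* (2.00), *Cpr97Ea* (1.38) and *Cpr65Ec* (1.14), which rose at late L3, were higher in replicate C, and *Cpr51A* (0.991) was nearly level. Longer coding sequences had higher ratios, with a Spearman coefficient of 0.51 over the 40 *Cpr* genes and 0.51 over all 7427, across genes that share the same libraries. The part of coding length in these ratios was not tested.

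**Figure D5:**
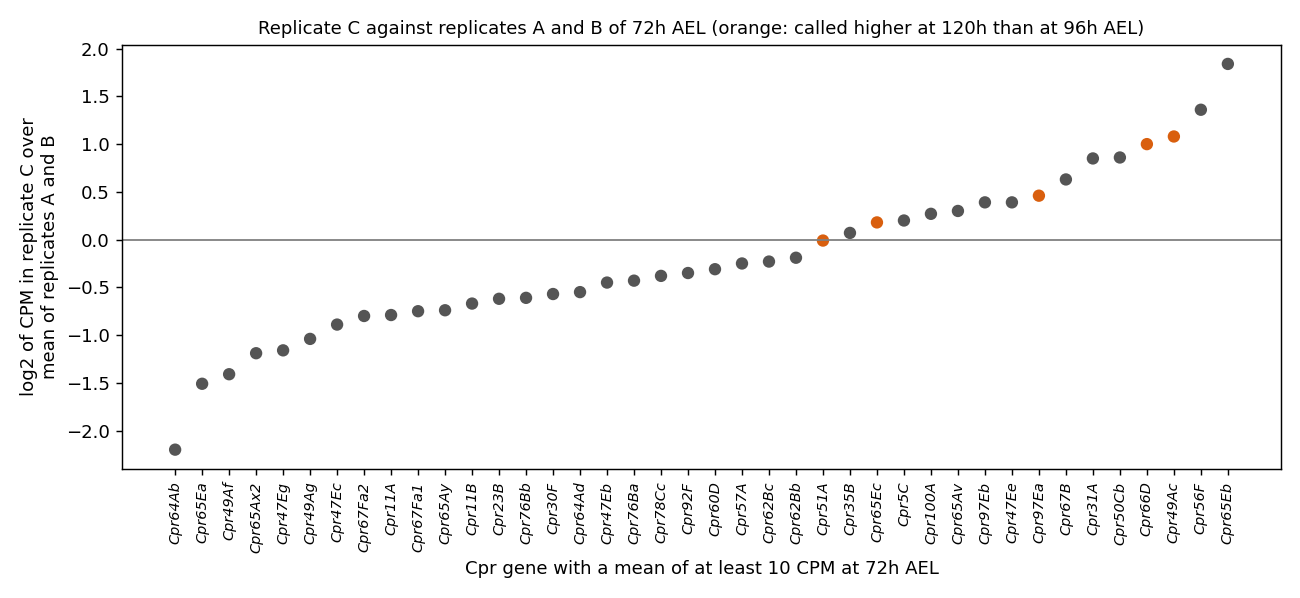
Log2 ratio of CPM in 72h AEL replicate C over the mean of replicates A and B (points) for the 40 *Cpr* genes with a mean of at least 10 CPM at 72h AEL, in order of the ratio. The ratio runs between 0.217 (*Cpr64Ab*) and 3.59 (*Cpr65Eb*) on the linear scale, and the orange points are the 5 of these genes called higher at 120h than at 96h AEL.

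Other genes of the cuticle were counted for comparison, beside the 19.4% of all tested genes that were higher and the 23.0% lower at 96h against 72h AEL, and the 8.39% higher and 6.30% lower at 120h against 96h AEL. Of the other cuticle protein genes (Twdl, Lcp, Ccp84A, Vajk, Edg and a few more), 39 of 46 tested fell between 72h and 96h AEL (median log2 fold change −6.50). The largest fall was that of *TwdlC* (−12.06, edgeR adjusted p = 0.00320). At 120h against 96h AEL, 5 of 23 rose and 9 fell, with *Vajk4* the largest rise (5.13) and *Lcp65Ac* the largest fall (−5.72). Tanning genes, which harden and colour the cuticle, fell in 5 of 7 cases at 96h AEL, among them *e* (−8.41) and *y* (−5.95), and of 3 tested at 120h AEL *b*, needed for beta-alanine synthesis, rose (3.28) and *ple*, the tyrosine hydroxylase, fell (−2.27). Genes for the synthesis and assembly of chitin, the partner of the *Cpr* proteins, had summed levels of 2981 to 3247 CPM at 72h AEL, 2426 to 2913 CPM at 96h AEL and 2949 to 3137 CPM at 120h AEL.

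Of 17 tested chitin genes 7 fell and 3 rose at 96h AEL, where 42.4% of all tested genes were called, and of 16 tested at 120h AEL 5 rose and 1 fell, where 14.7% were called. The chitinase gene *Cht5* averaged 47.9 CPM at 72h AEL, 0.266 CPM at 96h AEL and 10.3 CPM at 120h AEL, with log2 fold changes of −7.56 and 5.35 (edgeR adjusted p = 0.00129 and 0.00136). After this dip it stayed lower at 120h than at 72h AEL (log2 fold change −2.24, edgeR adjusted p = 0.00211), as did *Cpr66D*, *Cpr97Ea* and *Cpr65Ec*. *Cht10* rose in both steps (1.34 and 1.87). Of the transcription factor genes of the ecdysone response, 5 of 11 rose and 2 fell at 96h AEL, with *EcR*, the receptor, at a log2 fold change of 2.60 (edgeR adjusted p = 0.0114). At 120h AEL 3 of 11 rose, and *Blimp-1*, a repressor that ecdysone induces, averaged 15.9 CPM at 120h AEL, against 0.330 CPM at 96h AEL (log2 fold change 5.59, edgeR adjusted p = 0.00618).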

How the data were processed

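The deposited values are raw counts. According to the methods, the authors made libraries from total RNA of eye-antennal discs with a TruSeq RNA kit, sequenced them as 50 bp single-end reads, aligned these with Bowtie2 against 1 coding sequence per gene (the longest of FlyBase r5.55) and took the reads per gene from SAMtools 0.1.19 idxstats, neither normalized nor split by strand, so that reads of overlapping or near-identical genes cannot be told apart. The deposited table also gives the coding length in bases, and a deposited file of the authors gives the cluster number (1 to 13) of 8836 genes. Symbols and BDGP6 positions were matched by gene ID for 13406 genes; these positions played no part in counting. The members and gene lists were chosen with earlier results of these data known.

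Samples were grouped by the stage in the labels. Pairs of libraries of 1 stage with a chi-square per gene under 1.5 (genes with 20 or more counts in the pair) were summed. Means and SD at 72h AEL treat A and B, averaged, as 1 value beside replicate C. With R 4.3.3 and edgeR 4.0.16, each pair of stages was scaled by TMM, filtered after the HTSFilter method (100 thresholds of 1 to 200 normalized counts, loess span 0.3, which gave 147.7, 133.7 and 125.6 normalized counts and 8845, 8201 and 9125 genes for 96h against 72h, 120h against 96h and 120h against 72h AEL) and fitted with glmQLFit and glmQLFTest, two-sided, with Benjamini-Hochberg adjustment over all genes tested and calls at an adjusted p under 0.05. The study compared adjacent stages; 120h against 72h AEL was added. SE is the absolute log2 fold change over the square root of the F statistic. Where a member had under 20 reads in all at 1 stage, the ratio of summed counts over TMM-scaled library sizes is given with an exact conditional binomial interval, which covers counting error only.

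Genes with their values were chosen as the 6 largest rises and falls called in each comparison with 10 CPM or more at the higher stage, the member highest per kb in each locus of at least 3 members and over the loci with 1 member, and the members called in opposite directions at the adjacent transitions. Others were named to complete a locus or a count and were chosen after their values were seen. The replicate letters A, B and C recur at each stage, but the labels do not tie them to a shared day or batch. Deviations of same-lettered libraries from their stage means correlated at 0.20, 0.14 and 0.12 between 120h and 96h AEL, which was taken as pairing. Between 96h and 72h AEL (−0.48, 0.20 and −0.36) and between 120h and 72h AEL (−0.30, 0.25 and 0.09) this did not hold at every letter. The fits reported above held stage only in every comparison. The pairing of 120h and 96h AEL therefore enters only where the letter is named as a block. Alternatives were DESeq2 1.42.0, its size factors, library size alone, no filter, filterByExpr, all stages in 1 fit, replicates A and B of 72h AEL as separate samples, the letter as a block, a loess trend on coding length as an offset, adjusted p limits of 0.01 and 0.1, and each library left out in turn. The scripts were tested on simulated data. List genes without a match in the table (*stw*, *AANAT1*, *br*, *btl*, *tyn*, *wupA*, *PPO1*, *Lcp65Ag1* and the Cpap genes) were not analysed here. The deposited tables hold no columns of fold changes or p-values, and no sequences are shown.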

Additional observations from a re-analysis of the deposited data

How the results depend on the processing

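The 3 counts of called members (45 at 96h against 72h AEL, 22 at 120h against 96h AEL and 46 at 120h against 72h AEL) stayed within 1.5 times under DESeq2 (45, 25 and 47), DESeq2 size factors (45, 22 and 46), library size alone (45, 22 and 46), no filter (48, 26 and 53), filterByExpr (50, 26 and 52), all stages in 1 fit (45, 23 and 45), the coding length offset (44, 23 and 47) and an adjusted p limit of 0.1 (45, 23 and 47). With a limit of 0.01 they were 29, 14 and 42. Leaving out single libraries gave 31 to 45 calls at 96h against 72h AEL, 14 to 18 at 120h against 96h AEL and 44 to 47 at 120h against 72h AEL. The lowest of the first 2 ranges came without 96h AEL replicate B, the lowest of the last without 72h AEL replicate C, where the summed A and B stand alone and are assumed to vary like the other stage. With the replicate letter as a block, 19 members were called at 120h against 96h AEL, where the calls of *Cpr57A*, *Cpr60D* and *Cpr72Ea* and no other were lost. In the comparisons with 72h AEL, where the letters were not taken as pairs, the block needs replicates A and B as separate samples. Keeping them separate gave 47 and 49 calls without the block, and 45 and 49 with it, and with both *Cpr92A* was lost at 96h against 72h AEL (log2 fold change 4.19, edgeR adjusted p = 0.0527). *Cpr51A* at 120h against 72h AEL reversed under the coding length offset (0.63). Scaling shifted the all-gene median (log2), to 0.44 (library size) and 0.15 (length offset) at 96h against 72h AEL and to 0.58 and 0.21 at 120h against 72h AEL. Calls over all genes then split into 3178 higher and 1272 lower with library size, or 2529 and 1817 with the length offset, in place of 1712 and 2035 at 96h against 72h AEL. The *Cpr* genes, with a median coding length of 543 bases against 1194 over all genes, had medians of −4.60 and −4.05 in that comparison, and −6.78 and −6.64 at 120h against 72h AEL (−5.10 and −7.40 as reported). Over the 27 genes chosen by the rule, 14 of 64 calls were tested but no longer called under at least 1 alternative. Alternatives that left a gene untested were not counted, so *Cpr72Ea* at 120h against 72h AEL is not among the 14. Depth limits the size of falls that end at a few reads and the 16 members with means under 1 CPM throughout, which did not pass the filter. Tested without it, *Cpr47Ed* (in both comparisons with 72h AEL), *Cpr49Ae* and *Cpr65Au* (at 120h against 72h AEL) were called among them.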
